A study of Sus scrofa with 2 samples.

Results

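The miRNAs described here are miR-33, miR-103, miR-107, miR-122, miR-193, miR-365 and miR-378, a group known for its roles in liver, fat and energy metabolism. The group was defined by name, with earlier results of these data known. Every probe of the array table that starts with ssc-miR- and carries 1 of these 7 numbers was taken, with any letter or arm suffix. This gave 8 of the 355 probes. These were ssc-miR-103, ssc-miR-107, ssc-miR-122, ssc-miR-193a-3p, ssc-miR-193a-5p, ssc-miR-365-3p, ssc-miR-365-5p and ssc-miR-378, and no ID for miR-33 is among the values analysed here. Anterior pituitary RNA came from female piglets 20 days old, 3 Bama minipigs (a small Chinese breed with slow growth) and 3 Landrace pigs (a large European breed). The RNA of the 3 pigs of a breed was pooled, and each pool was measured on 1 custom array with Cy5 staining. The table holds linear signal intensities in arbitrary units, and ratios are Bama minipigs over Landrace pigs. A single pool per breed leaves the spread between pigs unknown, so the breeds are compared by size alone, without a test. In a whole gland, fewer cells of a type and less RNA per cell cannot be told apart.

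A miRNA is a short RNA that pairs with mRNAs, mainly through its bases 2 to 8 (the seed), and lowers their translation or stability. The paralogs miR-103 and miR-107 lie in introns of pantothenate kinase genes, which encode enzymes of coenzyme A synthesis, and are known as regulators of insulin sensitivity. miR-122 is the defining miRNA of hepatocytes and acts in cholesterol and fatty acid metabolism. The miR-193 and miR-365 families are made from neighbouring precursors and are known from brown fat differentiation. The miR-193 members here are both miR-193a, and no role in fat is implied for miR-193a by itself. The miRNA miR-378, encoded within the gene of the coactivator PGC-1β, is known from mitochondrial and lipid metabolism.

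The mature sequences, taken from the study's own probe list, are shown because their seeds divide the 8 probes into 7 groups. The seed is in capitals, from 5′ to 3′.
ssc-miR-103: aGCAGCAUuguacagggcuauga
ssc-miR-107: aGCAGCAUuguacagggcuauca
ssc-miR-122: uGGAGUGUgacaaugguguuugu
ssc-miR-193a-3p: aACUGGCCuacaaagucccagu
ssc-miR-193a-5p: uGGGUCUUugcgggcgagauga
ssc-miR-365-3p: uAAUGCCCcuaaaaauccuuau
ssc-miR-365-5p: gAGGGACUuucaggggcagcugu
ssc-miR-378: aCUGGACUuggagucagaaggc

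Only ssc-miR-103 and ssc-miR-107 shared a seed, GCAGCAU. Their mature sequences have 23 bases each and are identical at 22 of them. The single difference is G22C, counted from 1 at the 5′ end, with the base of ssc-miR-103 given first. How far each probe of the pair also binds the other RNA was not tested, so their signals are not taken as independent measurements. For the other 6 members the nearest mature sequence on the array was 8 or 9 edits away. Over the 8 members the GC content ran from 31.8% in ssc-miR-365-3p to 60.9% in ssc-miR-365-5p, with a median of 48.9%, against a median of 50% over all 355 probes.

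In the RefSeq annotation of Sscrofa11.1, used for names and neighbours only, MIR103-1 overlaps PANK3, MIR103-2 overlaps PANK2 and MIR107 overlaps PANK1. MIR378-1 overlaps PPARGC1B and MIR378-2 overlaps BCAS3. MIR365-2 and MIR193A directly follow each other in the gene order, and MIR365-1, which overlaps LOC110259927, lies apart from them. The array has a single probe for each mature sequence, so the signals of miR-103, miR-365 and miR-378 cannot be assigned to a precursor copy.

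The deposited values hold no background, so a floor of 150 units was set, below which a signal is given with no ratio between the breeds. Of all 355 probes, 156 lay at or above this floor on both arrays, 14 in Bama minipigs only, 6 in Landrace pigs only and 179 on neither. Of the 8 members, 2 lay above it on both arrays, 1 in Bama minipigs only and 5 on neither. The tissue is described here by 4 miRNAs known from endocrine and epithelial cells of the gland. They were chosen with earlier results of these data known, so they do not test the tissue label. All 4 of them were above the floor in both breeds, and their signals summed to 93804 for Bama minipigs and 100848 for Landrace pigs. The liver marker ssc-miR-122, itself a member, was far below it.

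**Figure D1:**
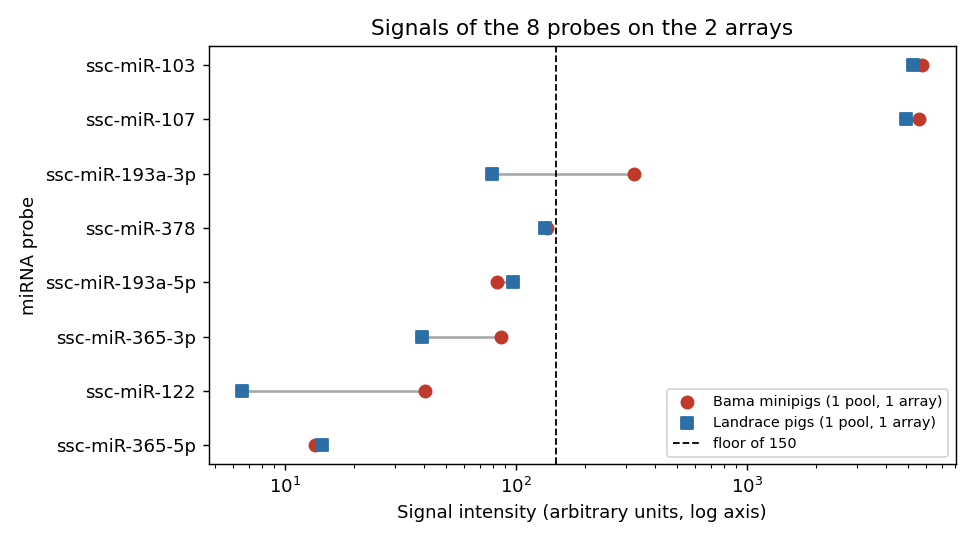
Signal intensity (arbitrary units, log axis) of each of the 8 probes in Bama minipigs (circles) and Landrace pigs (squares), 1 array per breed, with a line joining the 2 values and the floor of 150 dashed. The signals of ssc-miR-103 and ssc-miR-107 lie between 4909 and 5720, ssc-miR-193a-3p crosses the floor, and the other 5 probes stay below it on both arrays.

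The pair ssc-miR-103 and ssc-miR-107 gave strong signals of similar size in both breeds. The signal of ssc-miR-103 was 5720 for Bama minipigs and 5235 for Landrace pigs, a ratio of 1.09 (log2 ratio 0.13). The signal of ssc-miR-107 was 5568 and 4909, respectively, a ratio of 1.13 (log2 ratio 0.18). Both were thus slightly brighter on the Bama minipig array, well inside the 2-fold limit. The pair held 94.3% of the summed signal of the 8 members for Bama minipigs and 96.5% for Landrace pigs. All 8 together made up 1.72% and 1.57% of the summed signal of the respective array. Probes bind their targets unequally well, so these are shares of signal and not of molecules.

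The direction of the small difference in the pair depended on how the arrays were scaled. After scaling each array to its 75th percentile, the log2 ratio was -0.060 for ssc-miR-103 and -0.0063 for ssc-miR-107. After scaling to the median of the 156 probes at or above the floor on both arrays it was -0.0083 and 0.045. After quantile normalization it was 0.017 and 0.00. Cyclic loess, a local regression of the difference on the signal, kept both above 0, at 0.065 and 0.12. The median shift of the log2 ratio over all 355 probes was -0.19 (75th percentile), -0.14 (median), -0.18 (quantile) and -0.079 (loess). No direction between the breeds is therefore given for the pair.

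Among the 85 probes with a mean signal above 1000 and up to 10000, which include both members of the pair, the median size of the log2 ratio was 0.29. In that class 23 probes had a smaller log2 ratio in size than ssc-miR-103 and 31 a smaller one than ssc-miR-107. By the distance between the 2 log2 signals, the 3 probes closest to ssc-miR-103 were ssc-miR-574 (5904 and 5264), ssc-miR-30e-5p (5782 and 5469) and ssc-miR-107. Those closest to ssc-miR-107 were ssc-miR-103, ssc-miR-27a (5108 and 4870) and ssc-miR-574. With 2 arrays this likeness is of signal size only.

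The first 7 bases of the pair, AGCAGCA, also occur in the miR-15/16 family, a group known from control of the cell cycle, but shifted by 1 base. The motif was searched at bases 1 to 7 and 2 to 8 of the mature RNAs, on their own strand only, and 8 of the 355 sequences held it (2.25%). Besides the pair these were ssc-miR-15a, ssc-miR-15b, ssc-miR-16, ssc-miR-195, ssc-miR-424 and ssc-miR-497, a set chosen after the values were seen. A pair of them shows the shift, with the motif in capitals.
ssc-miR-103: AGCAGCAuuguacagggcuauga
ssc-miR-16: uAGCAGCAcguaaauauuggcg

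For 5 of these 6 probes both signals were above the floor, and 1 of the 5, ssc-miR-195, was brighter in Bama minipigs. Their log2 ratios ran from -0.19 for ssc-miR-15a to 0.58 for ssc-miR-195, with a median of -0.057. The signal of ssc-miR-16 was 8568 for Bama minipigs and 9377 for Landrace pigs. None of the 5 passed the 2-fold limit, as with ssc-miR-103 and ssc-miR-107. From the deposited values, the ratios of the pair lay below that of ssc-miR-195 and above those of the others. They were thus inside the range of these 5 through ssc-miR-195 alone. A difference between the sets could not be tested with 1 array per breed.

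Among the 3 members with a ratio or a limit, ssc-miR-193a-3p, the 3p arm of the miR-193a precursor, differed most between the breeds. Its signal reached 326 for Bama minipigs against 79.1 for Landrace pigs. The Landrace signal lay below the floor, so Bama minipigs exceeded Landrace pigs by at least 2.17-fold. This limit divides the Bama minipig signal by the floor, and it would be 1.63 with a floor of 200 and 3.26 with a floor of 100. After the scalings named above the limit was 2.07 (median), 2.04 (75th percentile), 2.07 (quantile) and 2.02 (loess), and with 50 units added to the signals and to the floor it fell under 2-fold, to 1.88.

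Past the 2-fold limit, with the brighter signal at or above the floor, lay 24 of the 355 probes that were higher in Bama minipigs (6.76%) and 7 that were lower (1.97%). These counts use the measured ratio also where the dimmer signal lay below the floor. For example, ssc-miR-338 (169 for Bama minipigs against 63.4 for Landrace pigs) is counted as higher, though its limit is only 1.13-fold. On the lower side ssc-miR-206 (117 against 278) is counted. Of the 8 members, ssc-miR-193a-3p was the 1 that was higher, and 0 were lower. A single probe of 8 cannot be set apart from that background. Under the other scalings the split of all probes was 22 higher and 11 lower (median), 21 and 11 (75th percentile), 20 and 10 (quantile) and 23 and 9 (loess), and 22 and 4 with the offset. The higher share of the called probes fell from 77.4% to 65.6% after scaling to the 75th percentile.

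Of the 14 probes above the floor in Bama minipigs only, 6 had a limit of 2-fold or more, and ssc-miR-193a-3p was the fifth of these by limit. The share of such probes in the whole table was 3.94%. The 3 probes closest to it in signal were ssc-miR-133a-3p (370.4 against 79.2), ssc-miR-4331 (307 and 94.2) and ssc-miR-133b (439 and 80.6). Like ssc-miR-193a-3p, these 3 lay below the floor in Landrace pigs. Their likeness is of signal size only, and its Landrace part rests on faint signals. Both miR-133 probes belong to miRNAs known as markers of striated muscle. Of 5 muscle markers on the array (ssc-miR-1, ssc-miR-133a-3p, ssc-miR-133b, ssc-miR-206 and ssc-miR-499-5p), 4 passed the floor for Bama minipigs and 2 for Landrace pigs, with summed signals of 1527 and 655. In the opposite direction to these sums, ssc-miR-206 gave 117 against 278 and ssc-miR-499-5p gave 175 against 192. Of the blood cell markers ssc-miR-451 and ssc-miR-486, both were above the floor in both breeds, with summed signals of 5494 and 6023. The part of other tissues in the miR-193a-3p signal was not tested.

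**Figure D2:**
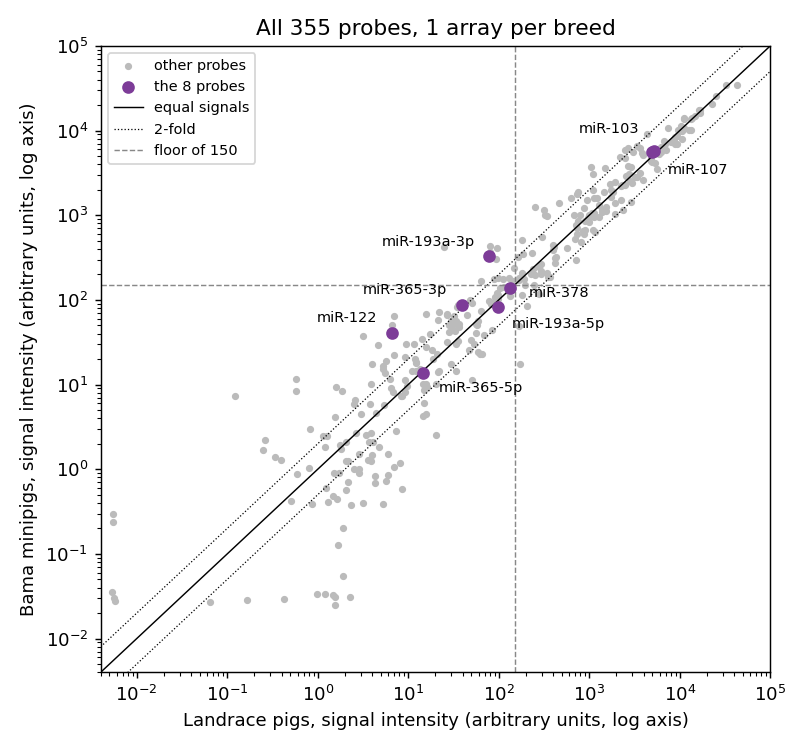
Signal intensity of all 355 probes in Bama minipigs against Landrace pigs (arbitrary units, log axes, 1 array each), with the 8 members in purple, equal signals as a solid line, 2-fold limits dotted and the floor of 150 dashed. The point of ssc-miR-193a-3p lies above the upper 2-fold line at 326 against 79.1, and ssc-miR-103 and ssc-miR-107 lie near the line of equal signals.

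The opposite arm of the same precursor, ssc-miR-193a-5p, gave 83.0 for Bama minipigs and 97.5 for Landrace pigs. Both signals of the 5p arm lay below the floor, so no ratio and no order between the breeds is given for it, and the arms cannot be compared.

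The probes for miR-365 gave faint signals from both arms. The signal of ssc-miR-365-3p was 86.7 for Bama minipigs against 39.2 for Landrace pigs, and that of ssc-miR-365-5p was 13.5 and 14.5. With a floor of 50, ssc-miR-365-3p would be at least 1.73-fold higher in Bama minipigs. At the floor of 150 both of its signals are too low for a ratio or an order.

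The signals of ssc-miR-378 were nearly the same, 137 for Bama minipigs and 134 for Landrace pigs. They lay just below the floor of 150. With a floor of 100 its log2 ratio would be 0.033. At the floor of 150 neither a ratio nor an order between the breeds is given for it.

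The liver miRNA ssc-miR-122 gave 40.3 for Bama minipigs and 6.56 for Landrace pigs. Both values lay far below the floor and differed by 33.8 units, so no ratio is given for it. With every alternative floor, down to 50, it stayed below the floor on both arrays. The sequence of ssc-miR-122 shares its bases 2 to 7, GGAGUG, with a single other probe, Y-49, an added probe with signals of 1.27 and 3.90.

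With all measured signals taken as they are, 6 of the 8 members were brighter in Bama minipigs and their median log2 ratio was 0.15. Over all 355 probes 182 were brighter in Bama minipigs, with a median of 0.031, and over the 156 probes above the floor on both arrays 73 were, with a median of -0.027. The 8 include 5 members below the floor, whose ratios rest on faint signals. After scaling to the 75th percentile the median of the 8 was -0.033.

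**Figure D3:**
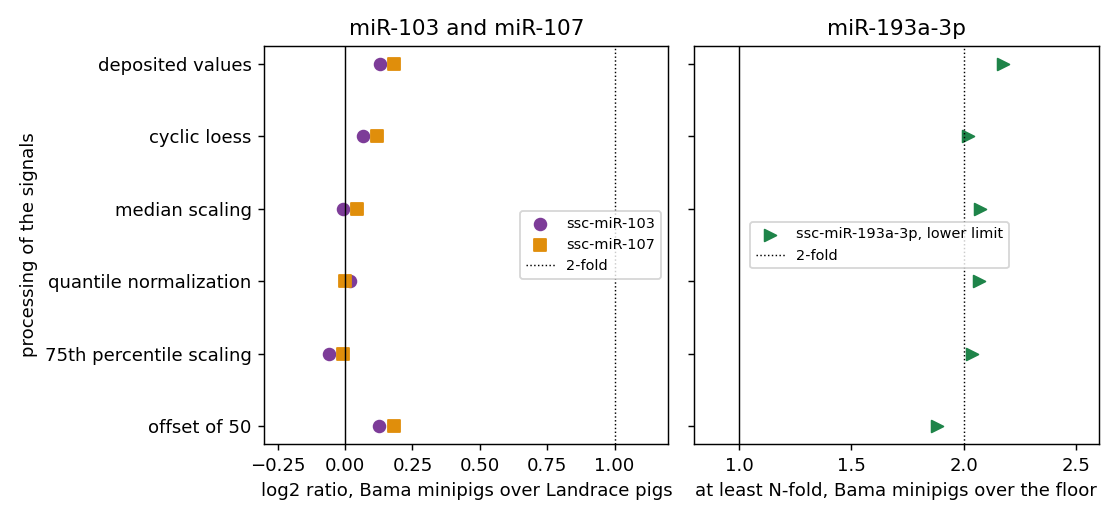
Left, the log2 ratio (Bama minipigs over Landrace pigs) of ssc-miR-103 and ssc-miR-107, and right, the at-least fold of ssc-miR-193a-3p (Bama minipig signal over the floor, linear axis), from the deposited values and under 5 other ways of processing, with no difference as a solid line and 2-fold dotted. The ratios of the pair move around 0, from -0.060 to 0.18, and the limit of ssc-miR-193a-3p runs from 1.88 with the offset to 2.17 from the deposited values.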

How the data were processed

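Anterior pituitary miRNAs of 1 RNA pool per breed were hybridized to 1 custom μParaflo array each. The deposited values are signal intensities after background subtraction, LOWESS normalization (locally weighted regression) and averaging over repeat spots, all done by the authors. Software versions and the handling of values below background are not given in the sources used here. The authors' calls of detectable miRNAs and their p-values were not used, and the depth of an array is not defined, so the number of arrays limits the precision.

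From the deposited signals, log2 ratios of Bama minipigs over Landrace pigs were computed with no further scaling. The floor was 150 units and the limit of size a log2 ratio of 1. The members, the lists and the floor were chosen with earlier results of these data known. The miRNAs named are the members, probes sharing their bases 2 to 7, the 3 probes nearest in log2 signal to each member above the floor, and tissue markers. The miR-15/16 family members, found by a motif, were added after the values were seen. The markers of pituitary cells were ssc-miR-7, Y-90, Y-76 and Y-77. A listed blood marker, ssc-miR-144, was not analysed here.

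Alternatives were median, 75th percentile and quantile scaling, cyclic loess (R 4.3.3, limma 3.58.1, 3 iterations), an offset of 50 and floors of 50, 100 and 200. The median was taken over the probes at or above the floor on both arrays, and the 75th percentile over all probes. The scalings and the offset were tested on simulated data, in which only probes with signals above 1000 were changed. Changes at fainter signals, such as those of ssc-miR-193a-3p, were not covered. Mature sequences came from the study's probe list. Python 3.11.15, numpy 2.4.6 and pandas 2.3.3 were used.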

Additional observations from a re-analysis of the deposited data

How the results depend on the processing

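Shifts of up to 1.5 times in a count and up to 0.1 in a log2 ratio were read as no change. Of the 48 values recomputed under other settings, 24 stayed within these limits and 24 moved. The count of probes 2-fold lower in Bama minipigs, 7 from the deposited values, was 11 after median scaling, 11 after scaling to the 75th percentile, 4 with the offset of 50 and 11 with a floor of 50. The count of probes 2-fold higher, 24 of all 355, was 15 over the 255 ssc- probes only, a smaller set. The median log2 ratio of the 8 members lies midway between the values of ssc-miR-103 and ssc-miR-107. From 0.15 it moved to 0.018 after median scaling, -0.033 with the 75th percentile and 0.0087 with quantile normalization. In the same order the log2 ratio of ssc-miR-103 was -0.0083, -0.060 and 0.017, and that of ssc-miR-107 was 0.045, -0.0063 and 0.00. The measured log2 ratio of ssc-miR-193a-3p, 2.04, was 1.91, 1.86 and 1.88, 1.83 after loess and 1.54 with the offset, but it divides by a Landrace signal below the floor and says nothing of stability. The cause of these shifts was not tested. The number of members above the floor on both arrays, 2, was 5 with a floor of 50. The limit of ssc-miR-193a-3p was at least 3.26-fold with a floor of 100 and 1.63-fold with a floor of 200, which is below 2-fold. In settings chosen after seeing the data, this limit was 2.02 after loess and 1.88 with the offset added to the signals and the floor. With the floor of 50 both of its signals counted as measured, at a ratio of 4.13. Signals under the floor carry no order between the breeds here. No paired analysis was possible because each breed has 1 pool on 1 array.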
